A study of Mus musculus with 4 samples.

Results

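The transcripts described here are those of the 104 genes, of 12182 genes with any m6A peak, that carried 8 or more listed peaks in the control heart, in the Wtap knockout heart, or in both. They held 861 of the 20766 peaks of the control list (4.15%) and 829 of the 21179 peaks of the knockout list (3.91%). The genes were chosen by their measured numbers of peaks, so those numbers are given as a description and are not tested. The study compared hearts of 4-day-old Wtapflox/flox mice, called control here, with hearts of Wtap-CKO mice of that age, called knockout. Both groups carry floxed Wtap alleles; the sources used here do not name the Cre driver, and the knockout titles read WBKO where the genotype label reads Wtap-CKO. RNA was pooled from 7 control and 8 knockout mice, so each genotype is 1 immunoprecipitated (IP) library and 1 input library. No difference between the genotypes therefore has a replicate check. Intervals (95%, exact Clopper-Pearson for shares, order statistics for medians) cover counting error only, and peaks of 1 gene are not independent. The read depth of the libraries is unknown, and fewer cells of a type cannot be told apart from less RNA per cell.

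N6-methyladenosine (m6A) is a methyl mark that a nuclear complex of METTL3, METTL14 and WTAP places on adenosines of nascent transcripts. WTAP binds the catalytic pair and holds it in nuclear speckles. The mark is known to concentrate in long internal exons and near stop codons, and it influences splicing, translation and decay. In MeRIP-seq, fragments pulled down by an anti-m6A antibody are set against the input RNA, and a peak is a stretch of exons where IP reads exceed input reads. Whether a peak is called thus depends on the transcript's abundance and on depth as well as on the mark.

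Several members with many peaks are known to encode giant proteins, although protein lengths were not compared here. Ahnak, which encodes a giant scaffold protein under the plasma membrane, held 18 control and 21 knockout peaks. Ttn, which encodes the sarcomeric spring titin, held 21 control peaks and 4 knockout peaks, the widest gap among the 104 genes. Also with 12 or more peaks in a list were Spen (13 control and 15 knockout), a transcriptional repressor that binds RNA, Myo18a (13 and 14), an unconventional myosin, Fat4 (11 and 13), an atypical cadherin, and Stard9 (11 and 13), a kinesin. Of the 101 members whose symbol matched a RefSeq gene table (GRCm38.p6, used for names only), 98 were protein-coding and 3 were long noncoding RNAs. The heart label was checked on 6 heart genes, all of which carried peaks in both lists: Myh6 had 5 control and 4 knockout peaks, Tnnt2 had 6 in each, Actc1 and Nppa had 1 in each, and Ryr2 had 6 and 2, beside Ttn.

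More control peaks than knockout peaks were listed in 47 members, more knockout peaks in 45 and equal numbers in 12. Over all 12182 genes, 25.6% had more control peaks and 30.4% more knockout peaks; most of those genes carry few peaks, and the rule used these counts, so nothing is read from the difference. A gap of 4 or more peaks towards the control was seen in 14 members, and towards the knockout in 12. Over all 12182 genes such gaps were seen in 48 (0.394%) and 24 (0.197%). The 2 lists differed by at most 1 peak in 36 members and by at most 2 in 62. Both lists held 8 or more peaks in 39 genes, with 391 control and 387 knockout peaks. A further 32 genes reached 8 in the control list alone (288 control and 160 knockout peaks) and 33 in the knockout list alone (182 and 282). Just inside the threshold, with 8 peaks in the fuller list, were 45 genes holding 302 control and 305 knockout peaks. Just outside it, with 7, were 67 genes holding 422 and 386.

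**Figure D1:**
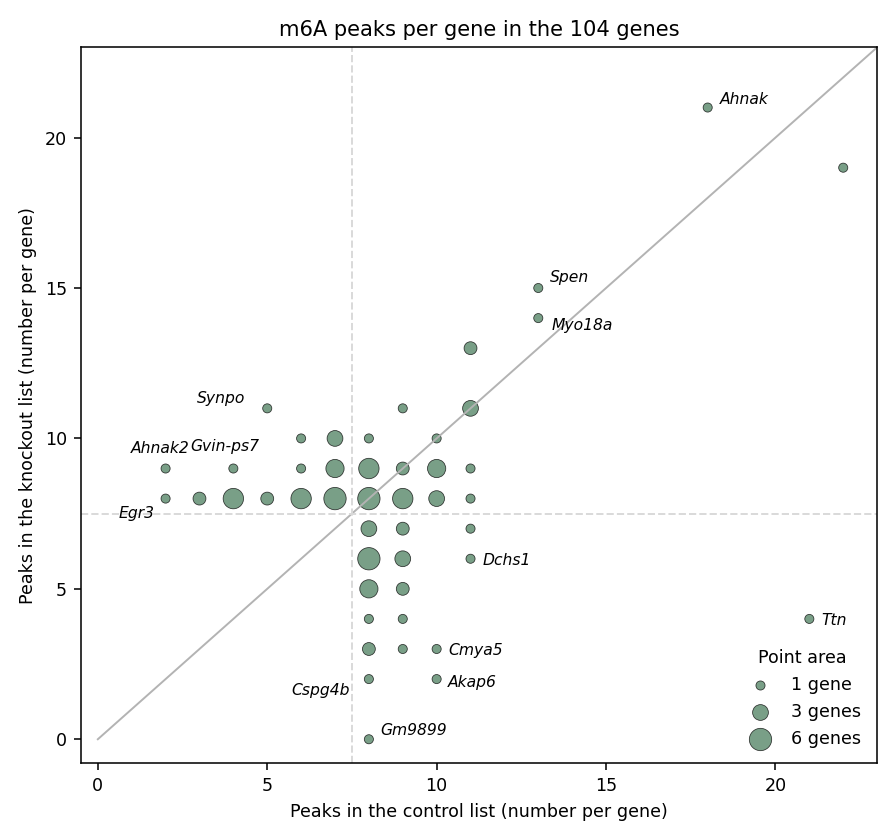
Listed peaks per gene in the control list (horizontal axis) and in the knockout list (vertical axis) for the 104 genes, with point area giving the number of genes at a position. The solid line marks equal counts and the dashed lines the threshold of 8, below which in both lists no gene is drawn. Ahnak (18 and 21) lies far out near equal counts and Ttn (21 and 4) far below the line.

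Listed peaks were not always separate places. When peaks of a gene that shared or touched exonic bases were merged, the 861 control peaks became 827 regions and the 829 knockout peaks became 800. Another peak of the same gene overlapped 66 of the 861 control peaks and 58 of the 829 knockout peaks. In all other genes this held for 1.62% and 1.60% of peaks. They sat in 14 members, and 13 genes no longer reached 8 regions in either list once merged. Egr3, an immediate early transcription factor, shows the form this took: its 8 knockout peaks were 4 pairs of nearly the same interval, such as chr14:70316443-70316532 beside chr14:70316426-70316516 (GRCm39, plus strand), and its 2 control peaks were 1 such pair. E130317F20Rik went from 11 control and 7 knockout peaks to 5 and 4 regions, 3222401L13Rik and 6330403L08Rik from 8 and 8 to 4 and 4, and Gvin-ps7 from 4 and 9 to 2 and 5. Prob1 went from 9 and 3 to 5 and 2. Others were Hk2, Gm9899, Msc, Fignl2, Maf and Mn1. E130317F20Rik, 6330403L08Rik, Fignl2, Maf and Mn1 fall outside the rule for naming and were picked with their values known. In the remaining 91 genes at least 8 separate regions stood in 1 list or both. Peaks could also be shared between genes. All 8 control peaks listed for the member Pakap (chosen after its values were seen) overlapped peaks of other Ensembl IDs with that symbol. In all, 11 control and 12 knockout member peaks (1.28% and 1.45%) overlapped a peak of another gene on the same strand. Pakap held 8 of them in each list. In other genes this held for 2.94% and 3.02% of peaks, larger shares than in the members.

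**Figure D2:**
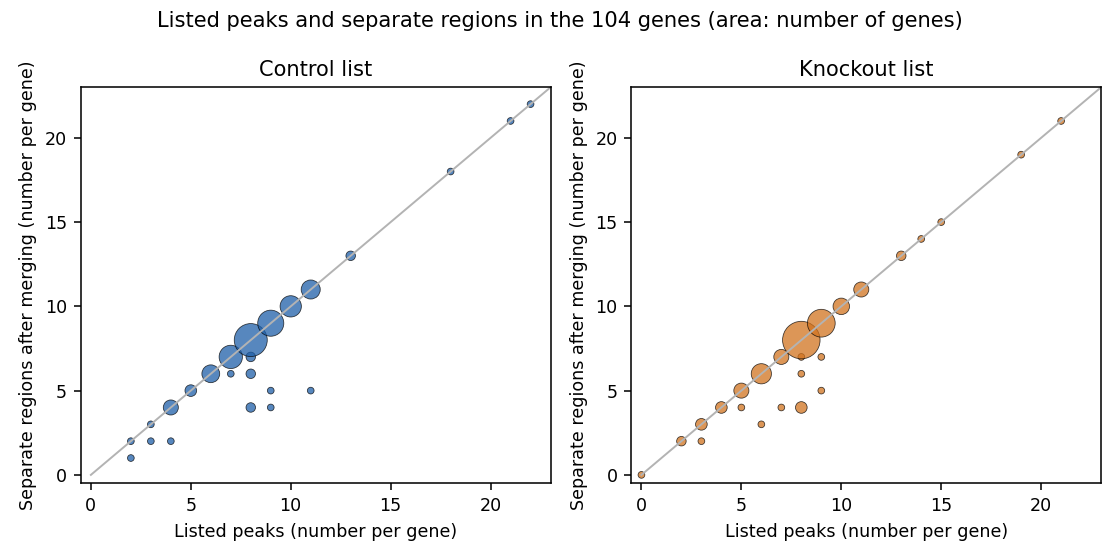
Listed peaks per gene (horizontal axis) against separate regions after merging overlapping peaks of the gene (vertical axis), control list on the left and knockout list on the right, with point area giving the number of genes. Points below the diagonal are genes with overlapping peaks of their own, such as E130317F20Rik (11 control peaks, 5 regions), and points on it are genes whose peaks are all separate.

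Single peaks of these transcripts resembled those of other genes in the authors' fold, the linear ratio of IP over input given for each peak. Against all other genes together, their median width was larger in the control list and equal in the knockout list. In both lists more of them covered 500 or more bases. Control peaks had a median exonic width of 301 bases (271 to 330, n = 861) against 270 (270 to 271) in other genes. Knockout peaks had one of 241 bases (241 to 271, n = 829) against 241, or 270 against 241 with overlapping peaks merged. In genes with 5 to 7 peaks in the fuller list the medians were 300 (control) and 271 bases (knockout). The control width is therefore not particular to the members. The median fold was 7.05 (6.59 to 7.54; quartiles 4.07 and 12.1) against 7.22 in the control list, and 6.68 (6.24 to 7.22) against 7.03 in the knockout list. Fewer of the member peaks crossed an exon junction: 16.8% (14.4 to 19.5) of control peaks spanned 2 or more exonic blocks, against 21.4% in other genes, and in the knockout list 18.7% against 23.5%. Peaks covering 500 or more bases made up 24.4% of control and 20.7% of knockout member peaks, against 20.4% and 16.7%. The median log10 q was -8.01 against -9.22 in the control list and -6.47 against -7.78 in the knockout list, so the member peaks carried, at the median, the weaker q of the caller. The widest peak covered 4649 bases in 4 blocks of Plec, and the highest folds were 137 in Nsd1 (control, chr13:55361380-55361920) and 101 in Mpeg1 (knockout, chr19:12440346-12440675).

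Along a transcript the peaks stood close together. Neighbouring control regions were a median of 745 genomic bases apart (quartiles 239 and 4607), against 1558 in other genes with 2 or more regions; in the knockout list the median was 778 against 2003. Gaps under 1000 bases made up 55.3% (400 of 723) of control and 53.5% (373 of 697) of knockout gaps, against 44.5% and 41.2%. The peaks of a gene spanned a median of 41.8 kb of the genome, from 2.27 kb in 3222401L13Rik to 378 kb in Pdzd2. Still, 50% of a gene's regions fell within a window of 4.35 kb at the median, and within 5 kb or less in 55 genes. In Ahnak that window was 7.86 kb and all peaks lay within 29.0 kb, against 19.8 kb and 239 kb in Ttn. More peaks in a fixed stretch lie closer together, so the spacing is not fully independent of the rule.

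The strongest region of a member, by the caller's p (ties by fold), more often lay 3′ of the middle of the order of its regions than 5′ of it. In the control list this held for 76 of 99 members with 4 or more regions (76.8%, 67.2 to 84.7), against 63.1% of 968 other such genes. The knockout list gave 65 of 96 (67.7%, 57.4 to 76.9) against 61.5% of 986 others. The 3′-most region itself was the strongest in 24 of 99 control and 25 of 96 knockout members, a smaller share than the 34.2% and 33.1% of the other genes, which have fewer regions to choose from. In Ahnak the strongest peak was the second from the 3′ end in both lists, at chr19:8993522-8994662 (fold 9.65) in the control and chr19:8993612-8994692 (fold 9.87) in the knockout.

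A peak has a counterpart, as used here, where any peak of the other list and of its strand covers 1 or more of its exonic bases. Without a knockout counterpart were 200 of the 861 control peaks (23.2%, 20.4 to 26.2), beside 23.9% over the whole list. Without a control counterpart were 150 of the 829 knockout peaks (18.1%, 15.5 to 20.9), against 24.7% in other genes and 24.5% over the whole list. The control share thus stood near its background and the knockout share below its own. Both depend in part on the rule, since a gene that reaches 8 peaks in 1 list alone must lack counterparts or split them. Among the genes with 8 or more peaks in both lists the shares were 15.9% and 13.4%. By the fuller list's peak count per gene, the knockout share was 34.7% in genes with 1 peak and 25.4%, 20.9%, 17.5% and 18.1% in genes with 2, 3 to 4, 5 to 7, and 8 or more, and the control share was 31.0%, 23.3%, 21.6%, 21.1% and 23.2% in the same order.

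**Figure D3:**
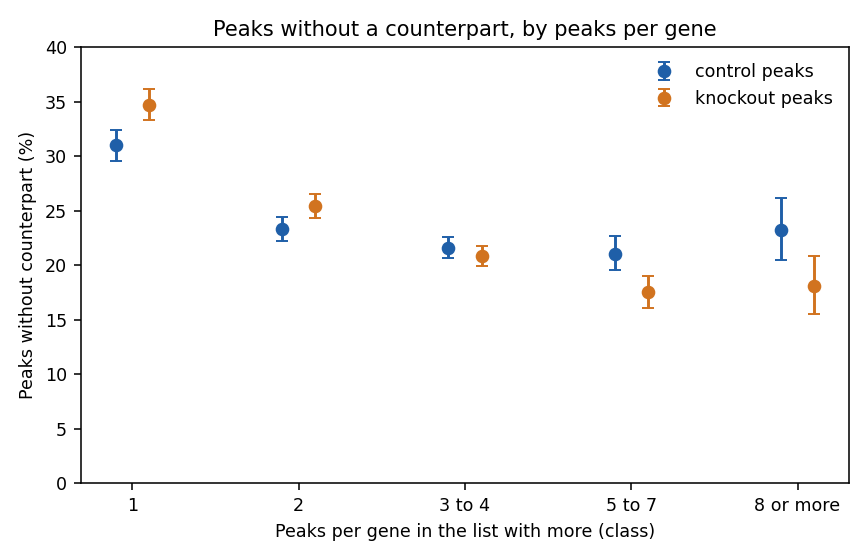
Share of peaks without a counterpart in the other list (vertical axis, percent, from 0) by the number of peaks per gene in the fuller list (horizontal axis, 5 classes), control and knockout peaks apart, with bars for the 95% binomial interval. Genes with 1 peak have the highest shares (31.0% control, 34.7% knockout); in genes with 8 or more the control share (23.2%) lies above the knockout share (18.1%).

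Peaks without a counterpart had a weaker q at the median, in the members as in all other genes. Their median log10 q was -4.15 in the control list, against -10.8 for control member peaks with a counterpart, and -2.92 against -9.21 in the knockout list. They were also shorter, with medians of 181 against 360 bases and 151 against 301. In other genes the median log10 q was -3.7 against -13.5 (control) and -3.25 against -12 (knockout). The median widths there were 180 against 328 bases and 151 against 300. The fold of member peaks was lower without a counterpart in the control list alone (median 4.81 against 7.54). In the knockout list it was 7.03 against 6.63. Among strong peaks, taken here as those with a q at or under 1e-10 (a limit set after the data were seen), 39 of 382 control peaks (10.2%, 7.36 to 13.7) had no knockout counterpart, beside 8.72% over the whole control list. In the knockout list, 9 of 332 strong peaks (2.71%, 1.25 to 5.08) met no control peak, beside 4.04% over the whole knockout list. The strong control peaks without a counterpart were unevenly spread: 27 of the 39 lay in 6 genes, namely Ttn and Cmya5 (6 each), Akap6, Hk2 and 1110002E22Rik (4 each) and Crybg3 (3). Without these 6 genes the control share was 3.49% of 344 strong peaks. These genes were picked for that count, so the lower share is a description of where the peaks lay.

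**Figure D4:**
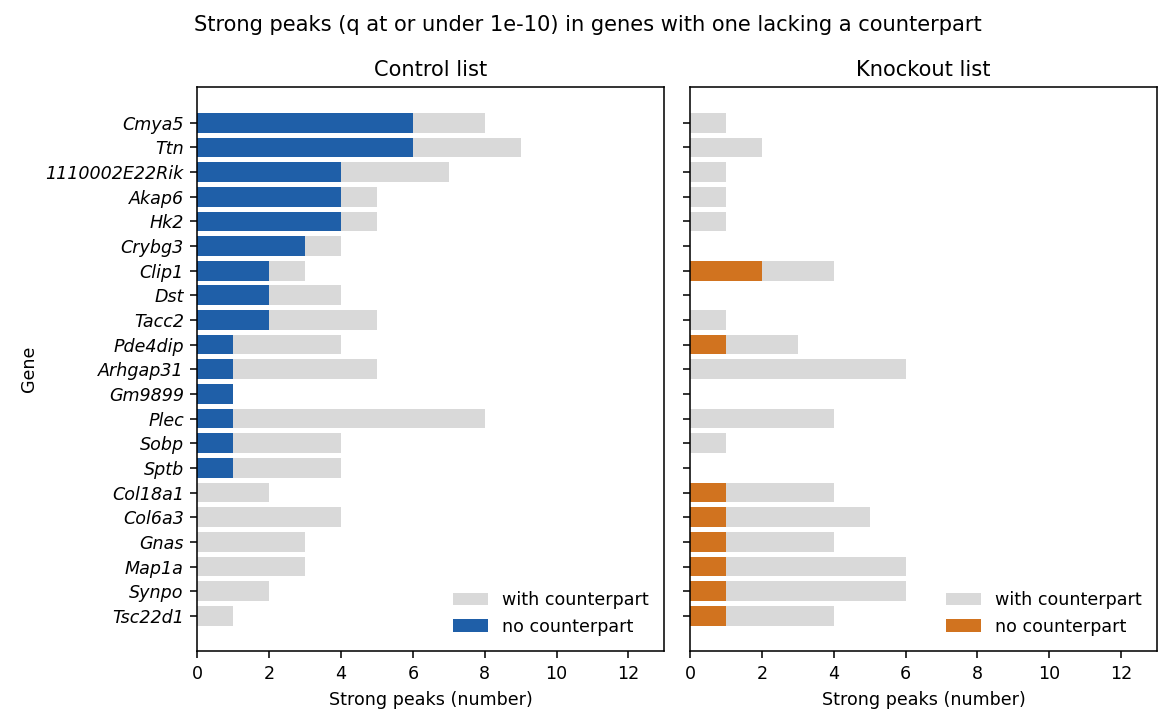
Number of strong peaks (q at or under 1e-10) per gene in the control list (left) and the knockout list (right), split into those with a counterpart (grey) and those without (coloured), for genes with at least 1 strong peak lacking a counterpart. Cmya5 and Ttn each have 6 such control peaks; in the knockout list Clip1 has 2 and the other genes have at most 1.

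Sarcomere, Z-disc and M-band genes included the member with the widest gap between the lists. Of 47 such genes with a peak, 7 were members (14.9%, beside 0.854% of all genes with a peak; the lists were chosen with earlier results of these data known). They held 75 control and 65 knockout peaks, of which 30 and 10 had no counterpart. In Ttn, 17 of the 21 control peaks had none, among them the strongest of all such member peaks, at chr2:76540125-76540455 (331 bases, fold 3.13, log10 q -294). The 4 knockout peaks of Ttn all overlapped control peaks, and their folds were 1.61, 1.62, 1.88 and 5.16, where the control peaks they met had 1.59, 4.43, 9.74 and 3.21. The strongest of these sites, chr2:76541655-76542285 in the control, was 631 bases wide there and 271 in the knockout. Cmya5, which encodes the muscle scaffold myospryn, went from 10 control to 3 knockout peaks, with 7 control peaks lacking a counterpart at folds between 2.10 and 7.40. Not every transcript on this list followed Ttn.

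Synpo, which encodes the actin-associated protein synaptopodin, was placed on this list, and a sarcomeric role of it was not examined. It went the other way, from 5 control to 11 knockout peaks, 6 of them without a counterpart. Of these 6, 1 was strong (1290 bases, fold 5.13, log10 q -20). Xirp1, Speg and Obsl1, named after their values were seen, also held more knockout peaks, with 8 against 4, 10 against 7 and 10 against 6. The 8 knockout peaks of Xirp1, which encodes an actin-binding protein of intercalated discs, all overlapped its 4 control peaks: the control peak of 2756 bases (fold 9.90) met knockout pieces of 1319, 211 and 361 bases with folds of 4.59, 1.62 and 2.46. A larger number of knockout peaks in Xirp1 thus went with fewer covered bases, 3125 against 5244.

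**Figure D5:**
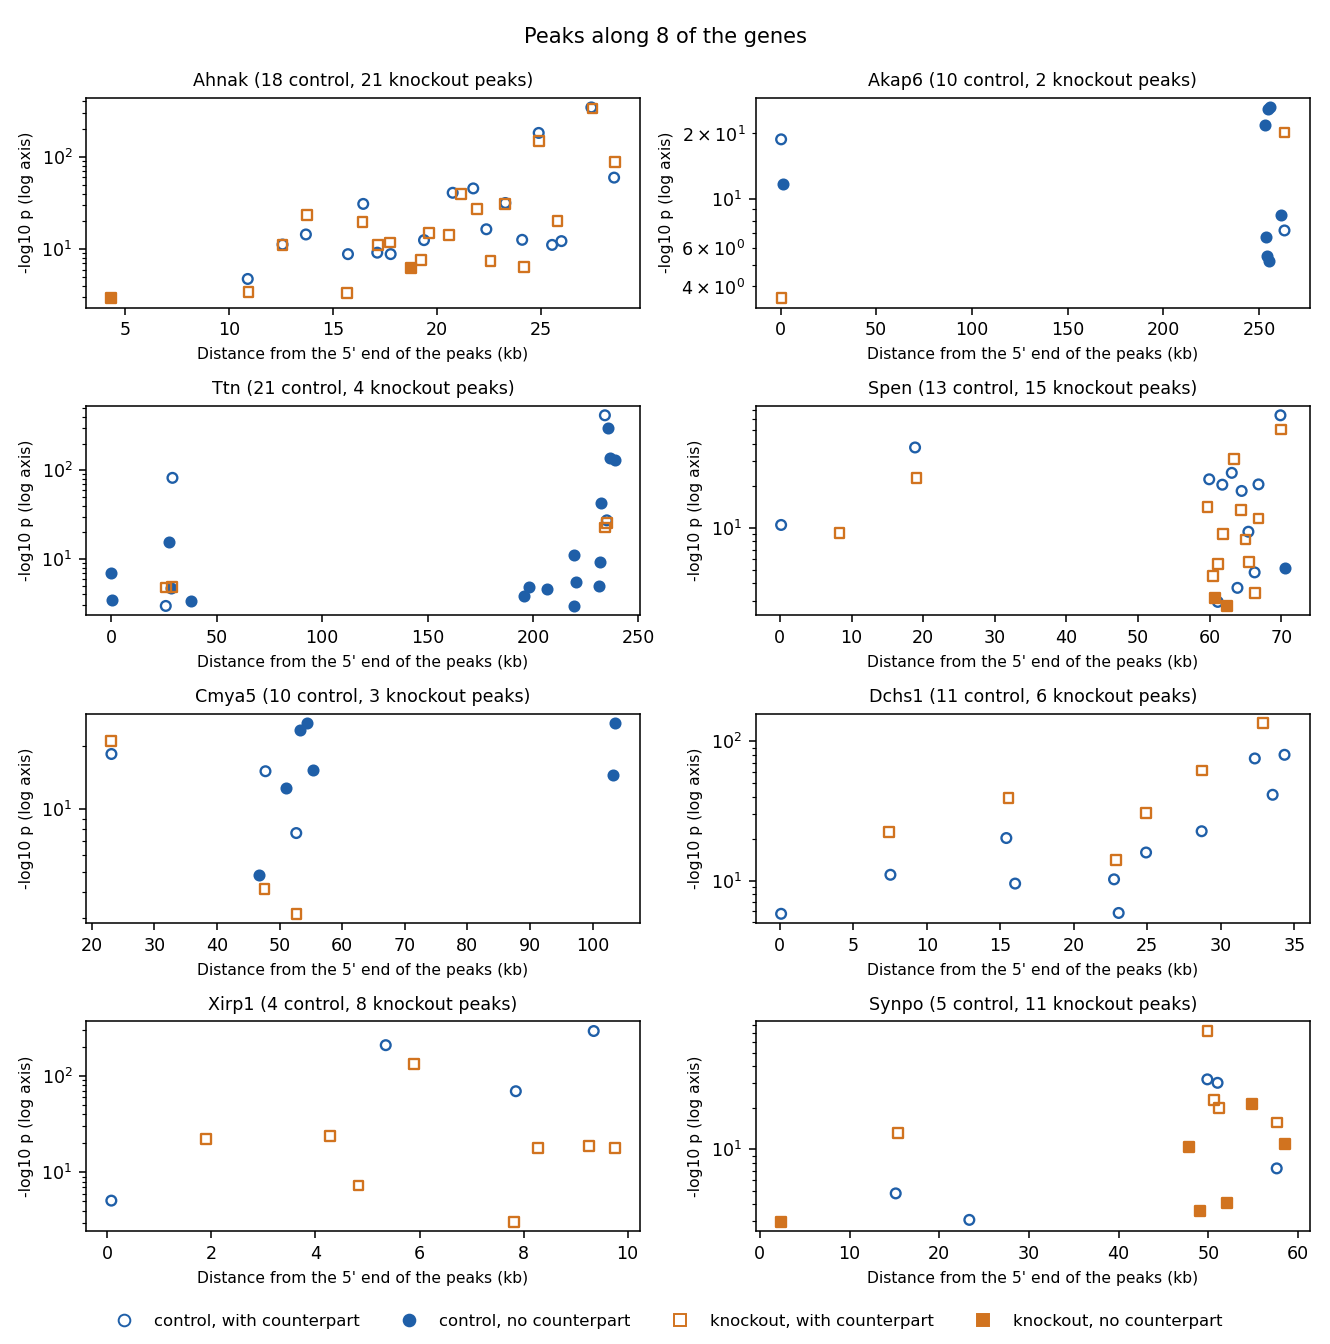
Peaks along Ahnak, Akap6, Ttn, Spen, Cmya5, Dchs1, Xirp1 and Synpo: distance of the middle of each peak from the 5′ end of the gene's peaks (horizontal axis, kb) against -log10 p of the authors' caller (vertical axis, log scale), control as circles and knockout as squares, filled where a peak has no counterpart. Filled control circles fill the Ttn panel (17 of 21 peaks) and the Cmya5 (7 of 10) and Akap6 (8 of 10) panels, filled knockout squares appear in Synpo (6 of 11), and Dchs1 and Xirp1 have open symbols alone.

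Cytoskeletal linkers, spectrins and nuclear envelope scaffolds gave 6 members of 43 such genes with a peak (14.0%). They held 57 control and 62 knockout peaks. Of these, 14 (24.6%) and 13 (21.0%) had no counterpart, beside 23.9% and 24.5% over the whole lists. All 18 control peaks of Ahnak had a counterpart, and so had 19 of its 21 knockout peaks. Ahnak2, its paralog, had 2 control and 9 knockout peaks. Of those 9, 7 had no control counterpart, at folds between 6.56 and 20.6 and log10 q between -1.80 and -6.08, so none of the 7 was strong. Dst, which encodes the spectraplakin dystonin, had 11 and 9, with 4 control peaks lacking a counterpart, 2 of them strong. This group therefore held gaps in both directions.

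Of 36 histone methyltransferase and demethylase genes with a peak, 6 were members (16.7%), all of them methyltransferases. Kmt2d held 11 peaks in each list and Kmt2a 10 control and 8 knockout peaks; with the other 4 genes they held 49 control and 50 knockout peaks, of which 8 (16.3%) and 7 (14.0%) had no counterpart, beside 23.9% and 24.5% over the whole lists. In Kmt2d, 8 peaks of each list met a peak of the other, and the folds of its strongest control peak and of the knockout peak at that site were 10.8 and 6.81 (chr15:98737285-98738214 and chr15:98737285-98738447). Chromatin remodellers, acetyltransferases and corepressors gave 5 members of 82 (6.10%), led by Tnrc18 (11 and 11) and by Cic (10 and 9), a transcriptional repressor. Of their peaks, 5 of 44 control (11.4%) and 4 of 45 knockout (8.89%) lacked a counterpart. The strong control peaks without a counterpart lay outside both of these groups, and also outside most of the 15 lists. Sarcomere genes held 12 such peaks of 42 strong control peaks, kinase anchors and scaffolds 5 of 20, and cytoskeletal linkers 4 of 35. Energy metabolism genes held 4 of 5, cell division genes 2 of 15, and members on no list 12 of 115.

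Giant cadherins and large surface receptors gave 6 members of 62 (9.68%), with 7 of 57 control and 11 of 55 knockout peaks lacking a counterpart. Fat4 and Dchs1, atypical cadherins that bind each other across cell contacts, differed in form. Fat4 had 11 control and 13 knockout peaks, of which 2 and 5 lacked a counterpart. Dchs1 had 11 control peaks and 6 knockout peaks, yet every one had a counterpart: 4 of its 6 joined regions held more control peaks than knockout peaks. There, a single knockout peak of 3086 bases and fold 58.6 (chr7:105402227-105405654) covered 3 control peaks of 540, 839 and 1469 bases with folds of 10.8, 9.98 and 15.8. The covered bases were 5761 in the control and 6746 in the knockout, so fewer peaks went with more bases. Fat1 had 9 and 11 peaks.

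Extracellular matrix and matrix protease genes gave 5 members of 54 (9.26%). Of their peaks, 4 of 34 control (11.8%) and 13 of 40 knockout (32.5%) lacked a counterpart, beside 23.9% and 24.5% over the whole lists. Col6a3, a chain of collagen VI, had 7 control and 10 knockout peaks, 5 of the latter without a counterpart, the strongest at chr1:90738203-90739033 (fold 8.79, log10 q -14.9). Igsf10, a secreted immunoglobulin-domain protein, had 10 and 9. Col18a1, the precursor of endostatin, had 5 and 8, with a knockout peak of fold 4.07 and log10 q -19.2 that had no control counterpart.

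Kinase anchors, GTPase regulators and signalling scaffolds gave 5 members of 81 (6.17%). Of their peaks, 14 of 42 control (33.3%) and 2 of 30 knockout (6.67%) lacked a counterpart, beside 23.9% and 24.5% over the whole lists. Akap6, which encodes the A-kinase anchor of the cardiomyocyte nuclear envelope, accounts for 8 of these 14 control peaks. It went from 10 control peaks to 2 knockout peaks, and its strongest control peak without a counterpart lay at chr12:53188852-53189332 (fold 3.57, log10 q -25.0). At the 3′-most site of Akap6 (chr12:53196413-53196563 in the control) both lists had a peak, with folds of 1.87 and 2.45 and log10 q of -6.28 and -18.9. Ankrd50, an endosomal recycling protein, had 8 peaks in each list, all shared, and Arhgap31, a GTPase-activating protein, had 9 and 7. Cell division and genome maintenance genes gave 3 members of 43 (6.98%). Of their peaks, 10 of 27 control (37.0%) and 1 of 18 knockout (5.56%) lacked a counterpart, beside the same 23.9% and 24.5%. Tacc2 (9 and 4 peaks) held 5 of those 10 control peaks, the centromere protein gene Cenpf (8 and 6) 4, and Mki67, the Ki-67 antigen (10 and 8), 1. Hk2, which encodes the glycolytic enzyme hexokinase 2, was the 1 member of 46 genes of energy metabolism, with 8 control and 3 knockout peaks. The 5 control peaks at its 3′ end had no counterpart, and 2 of those 5 overlapped each other; the strongest had fold 7.63 and log10 q -94.5 (chr6:82703925-82705752).

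Microtubule proteins and motors gave 4 members of 44 (9.09%), and genes of RNA silencing, decay, splicing and translation 4 of 63 (6.35%). Myo18a and the centrosomal scaffold Pcnt (9 and 9) stood among the first, where 9 of 39 control and 7 of 40 knockout peaks (23.1% and 17.5%) lacked a counterpart, close to the 23.2% and 18.1% of all members. Spen and Son (9 and 9), a splicing factor, stood among the second, where 7 of 39 and 4 of 37 (17.9% and 10.8%) did. In Spen a control peak of 1020 bases (fold 10.3) and a knockout peak of 1290 bases (fold 82.5) overlapped, the highest fold of that gene in either list. Zinc finger and homeobox genes (4 of 71, 5.63%) had 5 of 25 control and 8 of 32 knockout peaks without a counterpart; Zfp865 had 8 and 7 and Hivep1 7 and 9. The long noncoding RNA Tug1, the 1 member of 14 listed, had 7 and 9 peaks, and all 7 control peaks had a counterpart. Of 43 genes of ubiquitin ligases and ubiquitin-specific proteases with a peak, none was a member, which allows a share of up to 8.22% (exact 95% limit).

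On none of the 15 lists were 46 members with 350 control and 334 knockout peaks. Of these peaks, 81 (23.1%) and 66 (19.8%) lacked a counterpart, beside 23.9% and 24.5% over the whole lists. Several genes with wide gaps were among these 46 members. Gm9899 had 8 control peaks and was the 1 member with no knockout peak. Cspg4b had 8 and 2, with 6 control peaks lacking a counterpart. Crybg3 had 8 and 3, and 3 of its 4 strong control peaks had no counterpart, the strongest at chr16:59313566-59313986 (fold 5.06, log10 q -26.0). 1110002E22Rik had 9 and 5, with a control peak of fold 5.39 and log10 q -118 at chr3:137786818-137787147 that no knockout peak met. Towards the knockout, Il6ra, a chain of the interleukin 6 receptor, had 3 and 8, the transcription factor gene Msc 3 and 8, Gnas, the stimulatory G protein alpha subunit, 4 and 8, and Mpeg1, a macrophage pore-forming protein, 4 and 8. The strongest knockout peak without a control counterpart in any member lay in Gnas at chr2:174188417-174188537 (121 bases, fold 2.27, log10 q -44.7), and it overlapped a peak of Gm20721 on the other strand. Pde4dip held a strong peak without a counterpart in each list, at chr3:97597650-97598100 in the control (log10 q -198) and at chr3:97731688-97731928 in the knockout (log10 q -12.1).

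Joining the peaks of both lists gave 911 separate regions in the 104 genes. Both lists had a peak in 578 of them (63.4%), the control list alone in 189 (20.7%) and the knockout list alone in 144 (15.8%); in other genes these shares were 59.6%, 19.7% and 20.7%. Of the 578 shared regions, 458 (79.2%) held 1 peak of each list, against 91.4% in other genes, 38 held more control peaks and 54 more knockout peaks. With overlapping peaks of a list counted once, a choice added after seeing the data, the shares were 81.8% (473 of 578) and 92.2%. The rule selected on these peak counts, so nothing is read from the difference. Of the 47 members with more control peaks, 37 also had more regions of the control list alone than of the knockout list alone, and 5, Dchs1 among them, had no region of the control list alone. Of the 45 members with more knockout peaks, 38 had more regions of the knockout list alone, and 5 had none, Xirp1 among them. In 11 members every peak of both lists had a counterpart. They included the cytoskeletal genes Mical3 (9 and 8) and Mprip (9 and 8), the RNA-binding gene Acin1 (8 and 8), the chromatin genes Rai1 (7 and 9) and Ash1l (7 and 8), and 3222401L13Rik (8 and 8), whose peaks merged to 4 regions a list. Identical coordinates in both lists were seen in 28 of 790 overlapping pairs of peaks (3.54%), against 8.08% in other genes. Overlapping or split peaks of a gene give several pairs at 1 site, and the rule favours genes with such peaks. This difference is therefore not read as a trait of these transcripts.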

How the data were processed

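RNA of hearts was pooled per genotype (300 µg, fragments of about 100 nt, 2 h with the antibody, 150 bp paired reads, per the labels' protocols). Peak calling by the authors used exomePeak 2.16.0 at a q of 0.05, with the input of that genotype as control, per the series' design text. HOMER 4.9.1, BWA 0.7.12, fastp 0.19.11 and the build GRCm39 are listed in the submitters' processing notes, with no role. Each deposited list gives, per the file headers, exonic blocks, a score column that holds a p-value, log10 p and q values (read as a score, since some are minus infinity) and the authors' fold, a linear ratio of IP over input, used within its own list or side by side. Depth is unknown. Coordinates are printed 1-based.

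Python 3.11.15 with pandas 2.3.3, numpy 2.4.6, scipy 1.17.1 and matplotlib 3.10.9 counted peaks per Ensembl ID, merged overlapping exonic blocks, and looked for counterparts (at least 1 exonic base, same strand). The code of the overlap and merging steps was run on simulated data. It called shared 100% of 14814 peaks shifted by less than their width and 0% of 4981 peaks put on another chromosome name. Both outcomes were fixed by the set-up, so they check the code alone and not how well counterparts are found. With 1 library per group no test was run. Alternatives were q, fold and peak-count limits, stricter overlap, merged peaks, left-out genes and equal list lengths.

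The members and gene lists were chosen with earlier results of these data known. Genes named were those with 12 or more peaks, the 8 with the largest gap each way, 2 per list, the 8 strongest peaks without a counterpart per list and the 8 genes with the largest shared share. Further names were picked after their values were seen. The genes' parts (coding, UTR), sequence motifs and encoded proteins were not analysed here, and some members that the naming rule covers are not reported here.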

Additional observations from a re-analysis of the deposited data

How the results depend on the processing

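Of 97 alternative values over 15 results, 74 kept within the spread set for them and none changed direction; the 23 that moved follow. The number of genes, 104, became 171 with 7 or more peaks, 31 with 10 or more (335 control and 309 knockout peaks), 39 with 8 or more in both lists (391 and 387) and 49 at a q of 0.001 or less (424 and 370). The factor for counts was broad: with 7 or more peaks the genes held 1283 control and 1215 knockout peaks, against 861 and 829, and both counted as kept. The share of control peaks without a counterpart, 23.2%, became 18.4% at a q of 0.001, 10.2% at 1e-10 and 18.8% at a fold of at least 4; that of knockout peaks, 18.1%, became 10.96% at a q of 0.001, 2.71% at 1e-10 and 21.0% where an overlap of 50% of the shorter peak was asked. The median width became 331 bases (control) and 301 (knockout) at a q of 0.001. Added after the data were seen: with 8 or more peaks in both lists the shares were 15.9% and 13.4%; the strong control share became 3.49% without Ttn, Cmya5, Akap6, Hk2, 1110002E22Rik and Crybg3; the strong knockout share became 5.50% at a q of 1e-5 and 1.08% at 1e-20. A stricter q leaves fewer peaks in the members and in what is counted, by construction. No paired analysis was possible because each group held 1 library. Unknown depth limits every call made from a peak's absence: it was not detected in that list.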
